A study of Mus musculus with 16 samples.

Results

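Transcripts of 9 genes that mark fibroblasts and endothelial cells were followed in macrophages sorted from mouse heart and in blood monocytes. Dcn, Col1a1, Col1a2, Col3a1 and Pdgfra formed the fibroblast and matrix group, and Pecam1, Cdh5, Kdr and Tie1 formed the endothelial group. Members were every probe in the scanner files whose gene symbol is 1 of these 9, which gave 10 of the 39429 probes on the array, since Kdr has 2. A probe entered the tests if the scanner software scored its signal as well above background on 4 or more of the 16 arrays, and 7 of the 9 genes passed, among 21980 genes or unnamed features tested. Pdgfra and Cdh5 did not pass.

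The study measured RNA on 16 single-colour Agilent mouse arrays, with 4 arrays for each of 4 sorted populations from C57BL/6 mice that received no treatment. Sorted cells were alive, as judged by exclusion of DAPI, a dye that enters dead cells, and RNA was labelled with Cy5. The 3 macrophage populations came from minced and digested heart, and their shared gate was positive for CD45 (a surface protein of blood-derived cells), MerTK and CD64 (receptors of tissue macrophages) and negative for Ly6c. CCR2+ Mac were high for the chemokine receptor CCR2 and for MHCII, the antigen-presenting complex. MHC-IIHi Mac lacked CCR2, were high for MHCII and low for CD11c. MHC-IIlo Mac lacked CCR2 and CD11c and were low for MHCII. Ly6cHi Mono were monocytes from blood, so tissue digestion and cell identity both separate them from the macrophages and cannot be told apart. The labels give neither age nor sex and name no gate against platelet, endothelial or fibroblast surface proteins. Whether the replicates are separate mice or pools is not stated, so p-values measure only the spread between these samples.

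Cardiac fibroblasts produce the fibrous collagens and small proteoglycans of the heart's interstitium, and they carry the receptor for platelet-derived growth factor on their surface. Endothelial cells line the vessels, are held together by cadherin junctions, and depend on receptors for vascular endothelial growth factor and angiopoietins. Macrophages lie against both cell types in the heart, take up debris and dying cells, and are not usually regarded as a main source of collagen; Pecam1 is also carried by several kinds of leukocytes.

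What each probe reads bears on these measurements, and the sequences of 4 probes, for a pair of fibroblast genes and a pair of endothelial genes, are shown to place the measured stretch in coding sequence. They were taken from the scanner files, which give 60 bases per probe, and only the part up to and including the stop codon is shown for the first and second. Capitals mark the stop codon.
Dcn: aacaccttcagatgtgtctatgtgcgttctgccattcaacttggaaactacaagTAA
Col1a2: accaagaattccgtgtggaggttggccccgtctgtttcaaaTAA
Pecam1: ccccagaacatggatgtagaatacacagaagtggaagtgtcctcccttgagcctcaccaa
Tie1: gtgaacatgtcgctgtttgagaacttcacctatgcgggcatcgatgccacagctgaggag

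The share of spots well above background was 52.8% to 60.1% on the monocyte arrays and 58.1% to 69.3% on the macrophage arrays, and no spot was saturated. The sort was visible in the RNA: Ccr2 was higher in CCR2+ Mac than in MHC-IIHi Mac by 3.87 ± 0.33 on the log2 scale (SE; limma adjusted p = 2.26e-05), and H2-Ab1, an MHCII chain, was higher in MHC-IIHi Mac than in MHC-IIlo Mac by 1.81 ± 0.25 (adjusted p = 0.0171). Mertk was at least 36.8-fold higher in each macrophage population than in monocytes, and Ptprc, which encodes CD45, was well above background on all 16 arrays. The 4 arrays that share a replicate number lay on 1 slide. Each population always sat at its own position on the slide, and the effects of position and population cannot be told apart. In the deposited value table, all 16 columns matched an array of another sample best, 12 of them an array of another group, so scanner labels were used throughout.

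Levels below are log2 of the processed signal minus the 75th percentile of the same array, so a level of 0 equals that percentile. Values are given for replicates 1 to 4. Levels of different probes are not compared as amounts of transcript, because each probe binds with its own efficiency. Where all 4 arrays of a population failed to read a probe well above background, that population has only an upper bound: it was set to the lowest signal that was well above background on each array, or to its own signal if higher, and the difference is given as "at least" a fold. A p-value beside such a fold belongs to the fitted difference, which uses the background signals as read. The bound itself was not tested.

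Decorin (Dcn), a small proteoglycan that binds collagen fibrils, was read well above background in macrophages and not in monocytes. In CCR2+ Mac its levels were 2.42, 0.21, 1.25 and 1.07. In MHC-IIHi Mac they were 2.36, 1.56, 2.33 and 1.97, and in MHC-IIlo Mac 2.57, 2.12, 2.38 and 2.20. All 12 macrophage arrays were well above background and none overlapped the monocytes, whose signals of -5.04, -5.25, -4.85 and -5.20 were never well above background. Groups also did not overlap for 25.1%, 23.3% and 23.4% of all probes in CCR2+, MHC-IIHi and MHC-IIlo Mac against monocytes. Dcn was at least 20.8-fold higher in CCR2+ Mac than in Ly6cHi Mono, at least 36.6-fold in MHC-IIHi Mac and at least 43.9-fold in MHC-IIlo Mac (limma adjusted p = 5.08e-09, 8.69e-10 and 5.21e-10).

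Col1a1 and Col1a2 encode the chains of type I collagen, the main fibrous collagen of the heart. For Col1a1, CCR2+ Mac read -0.40, -2.64, -2.30 and -1.83, MHC-IIHi Mac -0.84, -2.28, -2.74 and -1.54, and MHC-IIlo Mac -1.08, -1.73, -2.07 and -1.16. The Col1a1 signals in Ly6cHi Mono were -4.52, -3.38, -5.03 and -3.31, none of them well above background. No macrophage array overlapped the monocytes, as for 25.1%, 23.3% and 23.4% of all probes in CCR2+, MHC-IIHi and MHC-IIlo Mac. The 3 macrophage populations overlapped each other. Col1a1 was at least 2.54-, 2.44- and 3.09-fold higher in CCR2+, MHC-IIHi and MHC-IIlo Mac than in monocytes (limma adjusted p = 0.00578, 0.00639 and 0.00216). Another background correction, normexp, ended all 3 of these calls (adjusted p = 0.0722, 0.140 and 0.0532).

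Col1a2 was well above background on all 16 arrays, monocytes included. It read 1.18, 0.43, -0.07 and 0.95 in CCR2+ Mac, 0.62, -0.72, 0.42 and 0.15 in MHC-IIHi Mac, and 0.86, 0.68, 0.43 and 0.29 in MHC-IIlo Mac, against -1.29, -2.56, -0.45 and -1.70 in monocytes. The third monocyte array lay above the second MHC-IIHi array. The other 2 macrophage populations did not overlap the monocytes, as for 25.1% of all probes in CCR2+ Mac and 23.4% in MHC-IIlo Mac. Col1a2 was higher than in monocytes by 2.12 ± 0.41 in CCR2+ Mac (log2 difference ± SE, limma adjusted p = 0.00145), by 1.62 ± 0.41 in MHC-IIHi Mac (adjusted p = 0.00909) and by 2.07 ± 0.41 in MHC-IIlo Mac (adjusted p = 0.00149).

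Col3a1, the chain of type III collagen that forms finer fibrils alongside type I, was read in all 4 populations. Its levels were 0.84, -0.04, -0.38 and 0.13 in CCR2+ Mac, 1.10, -0.09, -0.04 and 0.60 in MHC-IIHi Mac, 0.77, -0.03, -0.34 and 0.70 in MHC-IIlo Mac, and -0.54, -0.36, -0.95 and -0.30 in monocytes. Monocytes overlapped CCR2+ and MHC-IIlo Mac but lay below every MHC-IIHi array. MHC-IIHi Mac and monocytes did not overlap for 23.3% of all probes. The differences from monocytes of 0.67, 0.93 and 0.81 (each ± 0.34 SE) in CCR2+, MHC-IIHi and MHC-IIlo Mac did not pass the threshold (limma adjusted p = 0.182, 0.0631 and 0.109). With the slide as a replicate block in the model, which lowered the SE to 0.20, all 3 passed (adjusted p = 0.0204, 0.00323 and 0.00763). The MHC-IIHi difference also passed without the first CCR2+ array (adjusted p = 0.0469) and without the second MHC-IIHi array (0.0498). The mean of the 3 macrophage populations was higher by 0.80 ± 0.27 (adjusted p = 0.0401). That call was lost in 9 of the 16 fits that left out 1 array, where the difference ran from 0.67 to 0.88 with adjusted p of 0.0507 to 0.143. These were the fits without CCR2+ array 1 or 4, MHC-IIHi array 4, MHC-IIlo array 1 or 4, or any of the 4 monocyte arrays.

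Pdgfra, the receptor tyrosine kinase by which fibroblasts are most often recognised, was not well above background on any array. Its probe is spotted 10 times, and 0 of 114 usable spots on the macrophage arrays and 0 of 40 on the monocyte arrays were well above background. The mean signals of -5.76, -5.66 and -5.51 in CCR2+, MHC-IIHi and MHC-IIlo Mac and -5.10 in Ly6cHi Mono are therefore background readings, and no fold is given. This probe reads 1 stretch of the transcript, so a level below its background is not absence of the transcript.

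**Figure D1:**
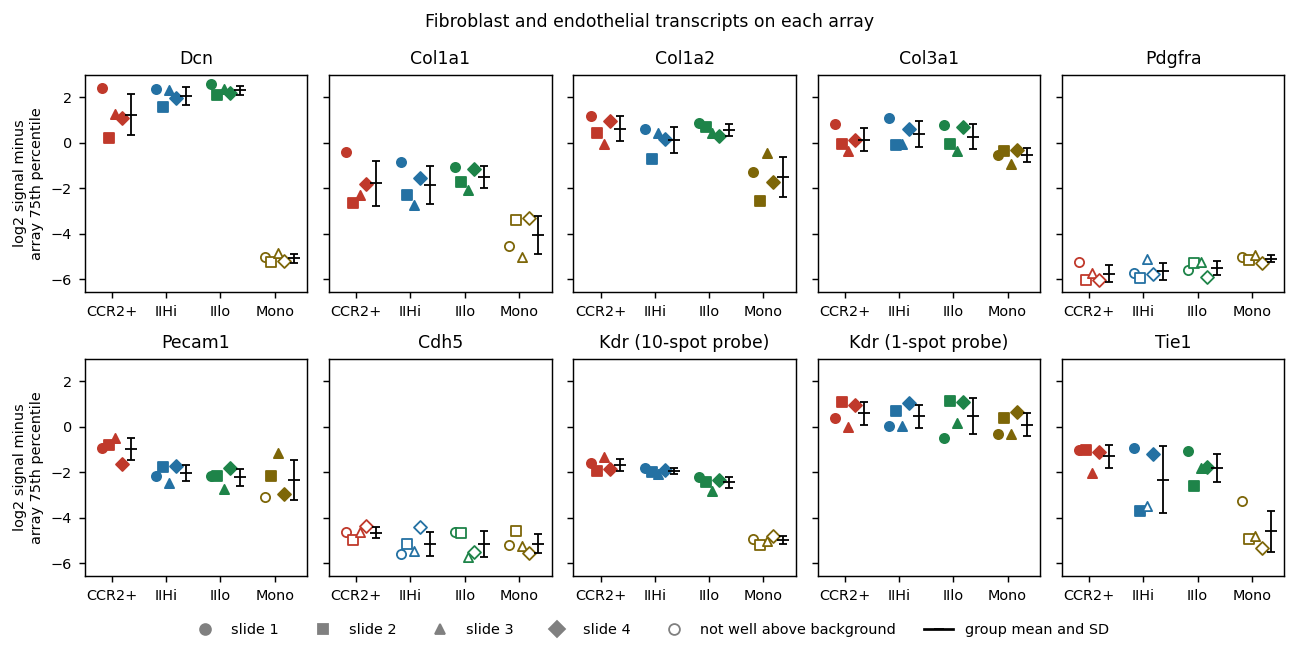
Level of each of the 10 probes on each array, as log2 signal minus the 75th percentile of the array, in CCR2+ Mac, MHC-IIHi Mac (IIHi), MHC-IIlo Mac (IIlo) and Ly6cHi Mono, with 1 marker shape per slide, open markers where the probe was not well above background, and black bars for mean ± SD (n = 4). Dcn and the Kdr probe spotted 10 times are filled in all 12 macrophage arrays and open in all 4 monocyte arrays, while Pdgfra and Cdh5 are open throughout.

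Among the endothelial genes, Pecam1 encodes CD31, an adhesion protein of endothelial junctions that platelets and leukocytes also carry. Its levels were -0.94, -0.78, -0.50 and -1.63 in CCR2+ Mac, -2.15, -1.77, -2.47 and -1.74 in MHC-IIHi Mac, and -2.18, -2.18, -2.74 and -1.81 in MHC-IIlo Mac. Monocytes read -3.09, -2.16, -1.17 and -2.97, and only the first of these was not well above background. Every CCR2+ array lay above every array of the other 2 macrophage populations, and the third monocyte array reached into the CCR2+ range. Pecam1 was higher in CCR2+ Mac than in monocytes by 1.38 ± 0.38 (limma adjusted p = 0.0161). That call was lost when the third CCR2+ array (adjusted p = 0.0523), the first monocyte array (0.0576) or the fourth (0.0512) was left out, and when only the compared groups were fitted (0.0579). The differences of MHC-IIHi Mac and MHC-IIlo Mac from monocytes, 0.31 and 0.12 (each ± 0.38), did not pass (adjusted p = 0.674 and 0.894), and both changed sign with normexp.

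VE-cadherin (Cdh5), the cadherin that seals endothelial junctions, was not well above background on any array. Its background readings ranged from -5.74 to -4.36 on the macrophage arrays and from -5.56 to -4.57 on the monocyte arrays, and the groups overlapped.

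Kdr encodes the main signalling receptor for vascular endothelial growth factor on endothelial cells, and its 2 probes gave different pictures. The probe spotted 10 times read -1.60, -1.93, -1.33 and -1.86 in CCR2+ Mac, -1.81, -2.00, -2.08 and -1.91 in MHC-IIHi Mac, and -2.22, -2.43, -2.82 and -2.33 in MHC-IIlo Mac. Monocytes read -4.93, -5.22, -5.04 and -4.80. All 118 usable macrophage spots and 0 of 39 monocyte spots of this probe were well above background, and the SD between spots within a macrophage array was 0.05 to 0.14. Fitted among 27643 probes taken one by one, it was at least 2.74-, 2.28- and 1.61-fold higher than in monocytes in CCR2+, MHC-IIHi and MHC-IIlo Mac (limma adjusted p = 6.71e-09, 1.02e-08 and 6.94e-08). With normexp the MHC-IIlo call was lost (adjusted p = 0.183).

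The Kdr probe spotted once was well above background on all 16 arrays, and it was the brighter of the pair and so stood for the gene in the test of 1 probe per gene. Its levels followed the slide: the 8 arrays of slides 1 and 3 read between -0.47 and 0.39, and the 8 arrays of slides 2 and 4 between 0.40 and 1.12, with monocytes inside both ranges. The differences from monocytes were 0.51, 0.37 and 0.38 (each ± 0.39) in CCR2+, MHC-IIHi and MHC-IIlo Mac and did not pass (limma adjusted p = 0.412, 0.618 and 0.598). With the slide as a replicate block, the first passed (adjusted p = 0.0382) and the others did not (0.128 and 0.119), while the mean of the 3 populations passed (0.42, adjusted p = 0.0328). The mean of both probes was higher than in monocytes by 1.91, 1.71 and 1.46 (adjusted p = 1.39e-05, 3.00e-05 and 0.000132).

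Tie1, an orphan receptor that modulates angiopoietin signalling through its partner Tek, had a wide spread among the arrays of MHC-IIHi Mac. CCR2+ Mac read -1.01, -1.03, -2.05 and -1.12, MHC-IIHi Mac -0.92, -3.69, -3.48 and -1.19, and MHC-IIlo Mac -1.06, -2.61, -1.80 and -1.77. Monocytes read -3.29, -4.96, -4.82 and -5.35 and were never well above background, and neither was the third MHC-IIHi array. The MHC-IIHi arrays split into a high and a low pair, and the low pair fell within the monocyte range. The other 2 macrophage populations did not overlap monocytes, as for 25.1% of all probes in CCR2+ Mac and 23.4% in MHC-IIlo Mac. Tie1 was at least 3.57-fold higher than in monocytes in CCR2+ Mac and at least 2.51-fold in MHC-IIlo Mac (limma adjusted p = 0.00117 and 0.00351). The fitted difference of MHC-IIHi Mac from monocytes, 2.28 ± 0.61, also passed (adjusted p = 0.0139). It includes the third MHC-IIHi array at background, so no fold is given. All 3 calls ended with normexp (adjusted p = 0.0696, 0.420 and 0.239). The MHC-IIHi call was also lost without the fourth MHC-IIHi array (0.0512) and in a fit of the compared groups only (0.0558).

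Taking 1 probe per gene, 5 of the 7 tested members were higher in CCR2+ Mac than in Ly6cHi Mono, where 21.7% of all features tested were called and 9.97% were called higher. In MHC-IIHi Mac 4 of 7 were higher, against 21.4% called and 10.1% called higher, and in MHC-IIlo Mac also 4 of 7, against 21.3% and 10.1%. For the mean of the 3 populations the count was 5 of 7, against 27.4% called and 12.5% called higher. No member was called lower. Dcn, Col1a1 and Tie1 passed the filter through macrophage arrays alone (12, 12 and 11 arrays), as did the Kdr probe spotted 10 times (12). Such probes could hardly be called lower, and Pdgfra and Cdh5 are not among the 7. The counts therefore describe the members and do not test them as a group. Dcn, Col1a1, Col1a2 and Tie1 were called in each of the 3 populations, Pecam1 in CCR2+ Mac, and Col3a1 for the mean. With the slide as a replicate block, 7, 5 and 5 of 7 were called and 6 for the mean, and the share of all features rose to 33.7%, 31.8%, 32.2% and 38.3%. With every probe taken on its own, which brings in the second Kdr probe, the counts were 6, 5, 5 and 6 of 7 genes, against 22.1%, 22.3%, 22.2% and 28.3% of probes. All these comparisons share the same 4 monocyte arrays. In bulk samples like these, fewer cells of a type and less RNA per cell cannot be told apart.

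**Figure D2:**
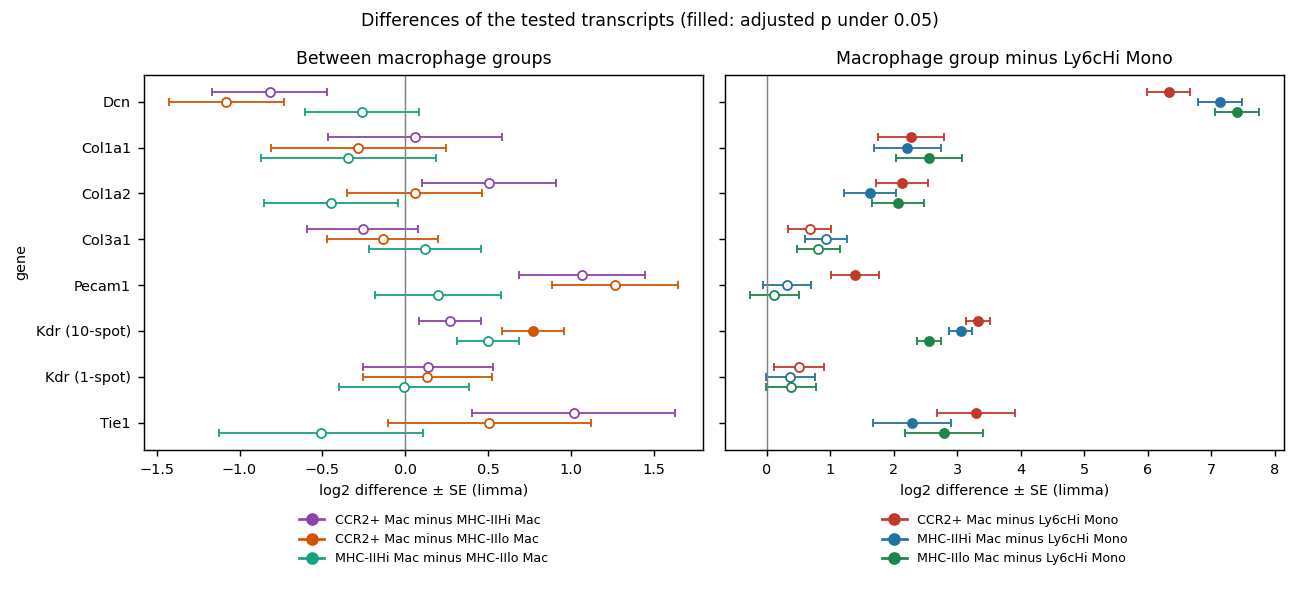
Log2 difference ± SE from limma for the 7 tested genes, with both Kdr probes, between macrophage populations (left) and against Ly6cHi Mono (right), filled where the adjusted p is under 0.05. Among macrophages the filled point is the Kdr probe spotted 10 times in CCR2+ minus MHC-IIlo Mac; where monocytes were not well above background the plotted difference is the fitted one, not a bound.

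The same 7 genes were compared between macrophage populations. With 1 probe per gene, limma called 0 of 7 between CCR2+ and MHC-IIHi Mac, where 1.25% of all features were called, 0 of 7 between CCR2+ and MHC-IIlo Mac (2.78%), and 0 of 7 between MHC-IIHi and MHC-IIlo Mac (0.0682%). At an unadjusted p under 0.05 the counts were 2, 2 and 0, against 2178, 2562 and 859 of the 21980 features tested. The 2 genes were Dcn and Pecam1 in both cases. With the replicate block the calls were 0, 1 and 0 (2.51%, 5.71% and 0.35% of features), the 1 being Dcn, and with every probe on its own 0, 1 and 0 (1.3%, 2.84% and 0.0651% of probes), the 1 being Kdr. Dcn and Pecam1 differed in opposite directions: Dcn had its lowest mean in CCR2+ Mac and Pecam1 its highest.

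Dcn averaged 1.24 ± 0.91 (SD, n = 4) in CCR2+ Mac, 2.06 ± 0.38 in MHC-IIHi Mac and 2.32 ± 0.20 in MHC-IIlo Mac. CCR2+ Mac were below MHC-IIlo Mac on 4 of 4 slides, by -0.15, -1.91, -1.13 and -1.13. The first CCR2+ array, at 2.42, lay within the range of MHC-IIlo Mac and above every MHC-IIHi array, and the other 3 lay below both populations. The difference between CCR2+ and MHC-IIlo Mac was -1.08 ± 0.35 and did not pass (limma adjusted p = 0.148). It passed with the slide as a replicate block (adjusted p = 0.0290), with array weights (-1.38, adjusted p = 0.0108) and without the first CCR2+ array (-1.47, adjusted p = 0.00878). Neither the difference between CCR2+ and MHC-IIHi Mac, -0.82 ± 0.35 (adjusted p = 0.417), nor that between MHC-IIHi and MHC-IIlo Mac, -0.26 ± 0.35 (adjusted p = 1.00), passed.

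Pecam1 was higher in CCR2+ than in MHC-IIHi Mac by 1.07 ± 0.38 and than in MHC-IIlo Mac by 1.27 ± 0.38, on 4 of 4 slides in both cases, without passing (limma adjusted p = 0.279 and 0.112; with the replicate block 0.188 and 0.0931). The second of these passed in 1 alternative, the fit without the third monocyte array (adjusted p = 0.0347). On slides 1 to 4 CCR2+ Mac exceeded MHC-IIHi Mac by 1.21, 0.99, 1.97 and 0.10. The excess over MHC-IIlo Mac was 1.25, 1.39, 2.24 and 0.18. The Pecam1 groups did not overlap, which was also true of 7.87% of all probes between CCR2+ and MHC-IIHi Mac and of 8.52% between CCR2+ and MHC-IIlo Mac.

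The Kdr probe spotted 10 times fell in the order CCR2+, MHC-IIHi and MHC-IIlo Mac, with means of -1.68 ± 0.27, -1.95 ± 0.12 and -2.45 ± 0.26 (SD, n = 4). CCR2+ and MHC-IIHi arrays overlapped, and MHC-IIlo arrays lay below both. Among probes taken one by one, the difference of 0.77 ± 0.19 between CCR2+ and MHC-IIlo Mac passed (limma adjusted p = 0.0361). It was lost in 8 of 16 fits without 1 array (0.65 to 0.83, adjusted p 0.0517 to 0.135), namely those without CCR2+ array 1, 3 or 4, MHC-IIHi array 2 or 4, or MHC-IIlo array 2, 3 or 4. It was also lost with quantile normalization (adjusted p = 0.151), with median scaling (0.187) and with normexp (0.434). The difference of 0.50 between MHC-IIHi and MHC-IIlo Mac did not pass (adjusted p = 0.929), although the arrays did not overlap, as for 2.44% of all probes. CCR2+ and MHC-IIHi Mac differed by 0.27 (adjusted p = 0.744).

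Tie1 in CCR2+ Mac exceeded MHC-IIHi Mac by 1.02 ± 0.61 and MHC-IIlo Mac by 0.51 ± 0.61, neither of which passed (limma adjusted p = 0.684 and 0.882). The 12 differences of Col1a1, Col1a2, Col3a1 and the single-spot Kdr probe between macrophage populations lay between -0.45 and 0.51. Across alternative settings 8 of these 12 changed sign at least once, and none was called in any of the 336 refits, so no order of the populations is given for these genes.

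Part of the variation within a population was shared along a slide. On slide 1 the 4 tested fibroblast genes and Tie1 were at their highest in all 3 macrophage populations, which is 5 of the 7 tested members and was true of 11.9% of all features tested; this tally was chosen after the values were seen. The same held for 6 of 22 other tested fibroblast and matrix genes, 3 of 25 other endothelial genes and 0 of 11 cardiomyocyte genes. Col1a1 showed it most plainly, with -0.40, -0.84 and -1.08 on slide 1 in CCR2+, MHC-IIHi and MHC-IIlo Mac. The sample titles give only a replicate number, and the slide was read from the barcode that the scanner software recorded. The part of the slide in these levels was not tested.

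**Figure D3:**
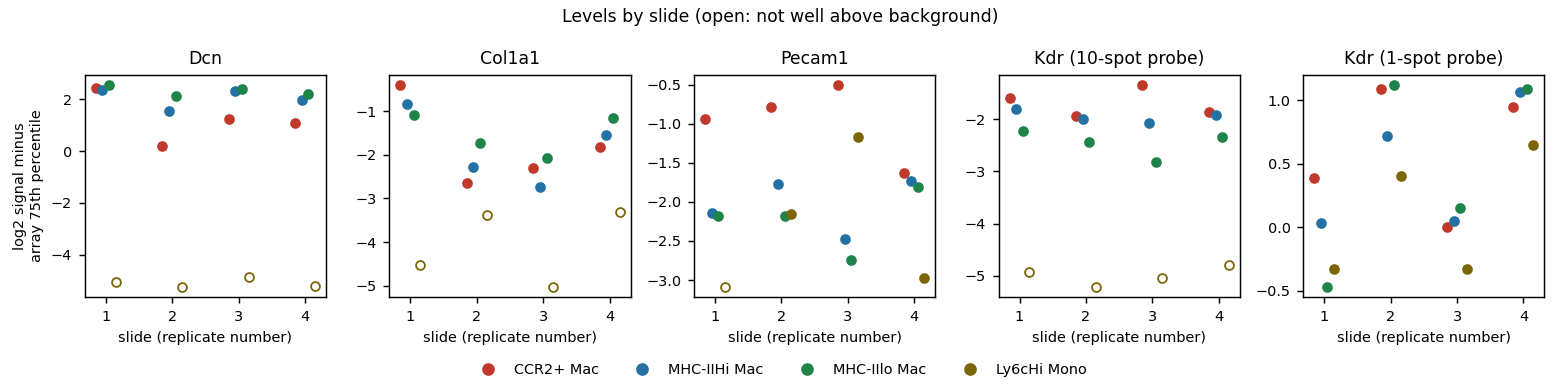
Levels of Dcn, Col1a1, Pecam1 and both Kdr probes on each of the 4 slides, as log2 signal minus the 75th percentile of the array, 1 colour per population and open markers where not well above background. Macrophage Col1a1 is highest on slide 1, and the single-spot Kdr probe is higher on slides 2 and 4 than on slides 1 and 3 in all 4 populations. Pecam1 is higher in CCR2+ Mac than in the other macrophages on every slide, by only 0.10 and 0.18 on slide 4.

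Among other genes of fibroblasts and matrix, a list of 30, 22 were tested. In each macrophage population 11 were higher than in monocytes, 1 was lower and 10 did not pass, beside 9.97%, 10.1% and 10.1% of all features called higher in CCR2+, MHC-IIHi and MHC-IIlo Mac. With the replicate block 12, 13 and 12 were higher and 1, 2 and 2 lower, against 33.7%, 31.8% and 32.2% of all features called in either direction. The median differences were 1.18, 1.31 and 1.36 in the same order, beside -0.09, -0.05 and -0.05 over all features tested. Sparc, a collagen-binding matricellular protein, was higher by 5.60, 5.42 and 5.52 (each ± 0.50; limma adjusted p at most 1.19e-06). Serpinf1, the secreted antiangiogenic protein PEDF, was higher by 3.40, 4.16 and 3.32 (each ± 0.26; adjusted p at most 1.96e-07), and Pcolce, an enhancer of procollagen processing, by 2.84, 2.87 and 3.06 (each ± 0.38; adjusted p at most 6.31e-05). Col4a1, a basement membrane collagen, was at least 4.51-, 3.50- and 2.71-fold higher, and Serpinh1, a chaperone of collagen folding, at least 2.51-, 2.27- and 2.59-fold. Pi16 was the gene that was lower, by -2.84, -2.90 and -2.78. Mmp2, called higher in MHC-IIlo Mac, had a bound under 1 there, so no fold is given and a higher level is not shown. Lum, Postn, Dpt, Fbn1, Col5a2, Col6a3, Ddr2 and Lox, which fibroblasts also express, were well above background on at most 2 of 16 arrays and were not tested. Between macrophage populations limma called 0 of the 22 in any of the 3 comparisons, and 1 in each had an unadjusted p under 0.05. Of all features, 1.25% were called in CCR2+ minus MHC-IIHi, 2.78% in CCR2+ minus MHC-IIlo and 0.0682% in MHC-IIHi minus MHC-IIlo Mac. In the same order 2178, 2562 and 859 of 21980 features had an unadjusted p under 0.05.

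Of 29 other endothelial genes, 25 were tested. The numbers higher and lower than in monocytes were 14 and 1 in CCR2+ Mac, 11 and 2 in MHC-IIHi Mac, and 12 and 1 in MHC-IIlo Mac, with median differences of 1.32, 1.00 and 1.12. Of all features, 9.97%, 10.1% and 10.1% were called higher and 21.7%, 21.4% and 21.3% in either direction. With the replicate block the numbers were 16 and 2, 13 and 2, and 13 and 2, against 33.7%, 31.8% and 32.2% of all features. For Robo4 in CCR2+ Mac and Ptprb in MHC-IIlo Mac, both among the genes called higher, the bound on the fold was under 1, so no fold is given and a higher level is not shown. Aqp1, a water channel, was at least 4.35-, 3.15- and 6.49-fold higher in CCR2+, MHC-IIHi and MHC-IIlo Mac, and Mmrn2, an endothelial matrix protein, at least 3.18-, 3.21- and 3.40-fold. Ramp2, a partner of the adrenomedullin receptor, was at least 3.24-, 3.45- and 3.39-fold higher, and Egfl7, a secreted vascular protein, was higher by 3.22, 3.17 and 2.91 (each ± 0.36). Erg, Sox17, Ecscr and Tmem100 were well above background on at most 3 arrays and were not tested.

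S1pr1, a sphingosine phosphate receptor that endothelial cells share with leukocytes, was the endothelial gene called in both comparisons of CCR2+ Mac. It was lower in CCR2+ Mac than in MHC-IIHi Mac, by -1.47 ± 0.30 (limma adjusted p = 0.0220), and than in MHC-IIlo Mac, by -2.14 ± 0.30 (adjusted p = 0.000572). Against monocytes S1pr1 was at least 4.18-, 11.6- and 18.5-fold higher in CCR2+, MHC-IIHi and MHC-IIlo Mac. Icam2, an adhesion protein of endothelium and leukocytes, was higher in CCR2+ than in MHC-IIlo Mac by 1.39 ± 0.27 (adjusted p = 0.00840), which is the direction of Pecam1. Between MHC-IIHi and MHC-IIlo Mac limma called 0 of the 25, against 0.0682% of all features. At an unadjusted p under 0.05 there were 2, against 859 of 21980 features. With the replicate block limma called 1, against 0.35% of all features. The block also called 1 higher and 1 lower between CCR2+ and MHC-IIHi Mac, and 1 higher and 3 lower between CCR2+ and MHC-IIlo Mac, against 2.51% and 5.71% of all features.

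**Figure D4:**
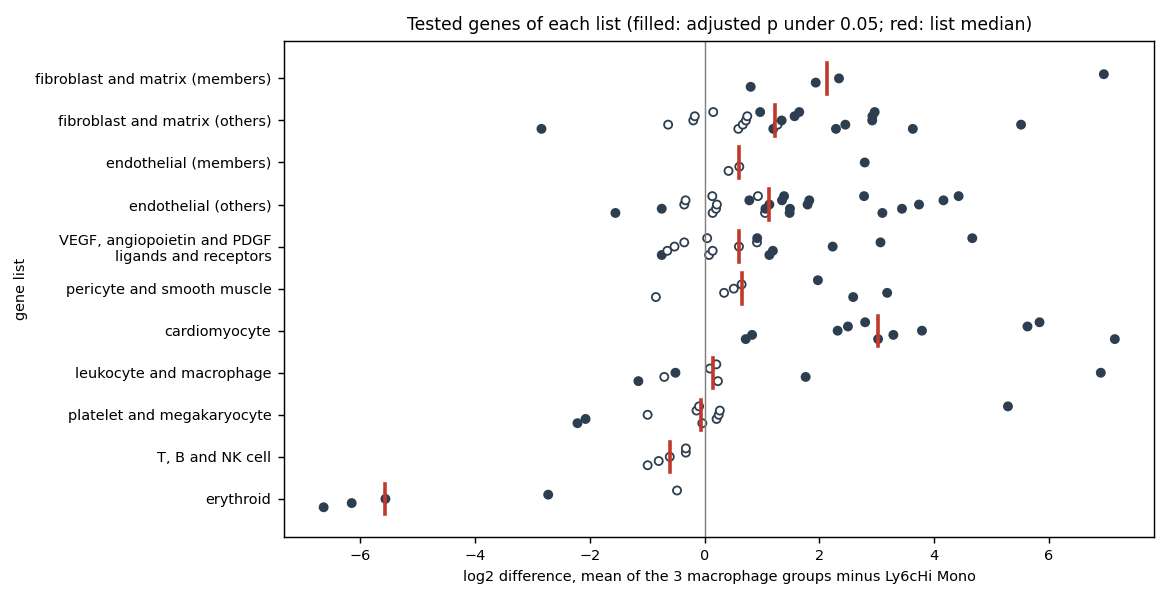
Log2 difference of the mean of the 3 macrophage populations minus Ly6cHi Mono for each tested gene of each list, filled where the limma adjusted p is under 0.05, with the list median in red. The cardiomyocyte list has the highest median among those named here, at 3.02 with 11 of 11 genes higher, and the tested fibroblast members have a median of 2.14, beside -0.07 over all features tested.

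Kdr, Tie1 and Pdgfra belong to receptor families whose ligands and other receptors formed a list of 17, of which 15 were tested. In CCR2+, MHC-IIHi and MHC-IIlo Mac, 6, 7 and 6 were higher than in monocytes and 1, 1 and 0 lower, beside 9.97%, 10.1% and 10.1% of all features called higher. With the replicate block 6, 7 and 6 were higher and 1, 1 and 1 lower, against 33.7%, 31.8% and 32.2% of all features called. For Pdgfc in CCR2+ Mac and Pdgfd in MHC-IIHi Mac, both among those called higher, the bound on the fold was under 1, so no fold is given and a higher level is not shown. Pdgfa, a ligand of the receptor that Pdgfra encodes, was higher by 4.73, 4.76 and 4.50 (each ± 0.22; limma adjusted p at most 8.91e-10). Pdgfc, another ligand of that receptor, averaged -3.40 ± 0.69, -2.21 ± 0.87 and -1.20 ± 0.58 (SD, n = 4) in CCR2+, MHC-IIHi and MHC-IIlo Mac. It was at least 1.90-fold higher than in monocytes in MHC-IIHi Mac and at least 3.83-fold in MHC-IIlo Mac. Nrp2, a co-receptor for vascular endothelial growth factors, was higher by 1.59, 2.36 and 2.75 (each ± 0.27). Pdgfc and Nrp2 were also lower in CCR2+ than in MHC-IIlo Mac, by -2.20 ± 0.42 (adjusted p = 0.00753) and -1.16 ± 0.27 (adjusted p = 0.0288). These were the 2 of the 15 called between macrophage populations, beside 2.78% of all features called in CCR2+ minus MHC-IIlo Mac. With the replicate block 1 was lower in CCR2+ than in MHC-IIHi Mac, where 2.51% of all features were called. In CCR2+ minus MHC-IIlo Mac the block called 3 lower, where 5.71% of all features were called. Flt1, a receptor of endothelial cells and monocytes, was lower than in monocytes by -0.79 in CCR2+ Mac and -0.84 in MHC-IIHi Mac (each ± 0.23; adjusted p = 0.0210 and 0.0146). Pdgfrb and Angpt1 were not well above background on any array.

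Of 10 pericyte and smooth muscle genes, 7 were tested, and 4, 3 and 3 were higher than in monocytes in CCR2+, MHC-IIHi and MHC-IIlo Mac and 0 lower, beside 9.97%, 10.1% and 10.1% of all features called higher. The replicate block gave 5, 3 and 4 higher and 0 lower, against 33.7%, 31.8% and 32.2% of all features called in either direction. Rgs5, a pericyte regulator of G protein signalling, was at least 2.17-, 3.43- and 2.32-fold higher, and Des, the muscle filament desmin, by 1.88, 2.03 and 2.02 on the log2 scale (each ± 0.33). Cspg4, the proteoglycan NG2, was higher in CCR2+ than in MHC-IIHi Mac by 1.43 ± 0.29 (limma adjusted p = 0.0239). It was the 1 gene of this list called between macrophage populations. Of all features, 1.25% were called in CCR2+ minus MHC-IIHi, 2.78% in CCR2+ minus MHC-IIlo and 0.0682% in MHC-IIHi minus MHC-IIlo Mac. With the replicate block 1 was called for CCR2+ against each of the other 2, against 2.51% and 5.71% of all features.

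Markers of cardiomyocytes, which are not sorted by any of the gates, moved with the same comparison. Of 12 listed genes 11 were tested, and 9, 11 and 10 were higher in CCR2+, MHC-IIHi and MHC-IIlo Mac than in monocytes, beside 9.97%, 10.1% and 10.1% of all features, with median differences of 2.68, 3.48 and 3.08. The replicate block gave 9, 11 and 11 higher, against 33.7%, 31.8% and 32.2% of all features called in either direction. Mb, which encodes myoglobin, was at least 25.6-, 37.3- and 30.6-fold higher, Tnnt2, cardiac troponin T, at least 14.5-, 21.5- and 18.3-fold, and Actc1, cardiac actin, at least 10.6-, 16.8- and 11.6-fold. The summed signal of the list, in multiples of the 75th percentile of each array, was 20.4 to 39.4 on the macrophage arrays and 2.71 to 3.39 on the monocyte arrays. Between macrophage populations 0 of 11 were called by limma, where 1.25%, 2.78% and 0.0682% of all features were called. At an unadjusted p under 0.05 there were 3, 1 and 0, against 2178, 2562 and 859 of 21980 features. The medians, in the same order, were -0.57 for CCR2+ minus MHC-IIHi, -0.34 for CCR2+ minus MHC-IIlo and 0.28 for MHC-IIHi minus MHC-IIlo Mac. Ryr2 was not well above background on any array.

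The same sums give the members by array. The 5 fibroblast members summed to 10.2, 3.65, 4.33 and 5.43 in CCR2+ Mac, to 9.41, 4.71, 7.51 and 6.91 in MHC-IIHi Mac, to 9.94, 7.25, 7.62 and 7.90 in MHC-IIlo Mac, and to 1.20, 1.10, 1.35 and 1.27 in monocytes. Macrophages did not overlap monocytes in this sum, and slide 1 was highest in each macrophage population. Dcn made up on average 44.5%, 60.2% and 61.5% of the sum in CCR2+, MHC-IIHi and MHC-IIlo Mac. Such shares are of signal, which depends on the efficiency of each probe, and do not give relative amounts of transcript. The sums include the background readings of Pdgfra and Cdh5. In monocytes Col3a1 was the largest part, at 57.6%, so the sum does not stand for a shared rise of the 5 genes. The 4 endothelial members summed to 2.36, 3.23, 1.99 and 2.76 in CCR2+ Mac, 1.80, 2.04, 1.33 and 2.88 in MHC-IIHi Mac, 1.46, 2.60, 1.56 and 2.73 in MHC-IIlo Mac, and 1.04, 1.62, 1.30 and 1.74 in monocytes. Here MHC-IIHi and MHC-IIlo Mac overlapped monocytes and CCR2+ Mac did not. The single-spot Kdr probe, whose level followed the slide, made up on average 60.3%, 72.0%, 70.5% and 77.3% of this sum in CCR2+, MHC-IIHi and MHC-IIlo Mac and monocytes. The 30 other fibroblast and matrix genes summed to 29.4 to 48.0 in macrophages and 36.1 to 46.0 in monocytes, although 19 to 23 of them were well above background per macrophage array and 10 to 14 per monocyte array. In monocytes Pi16, Mfap4 and Cd248 carried on average 46.4%, 20.9% and 15.3% of that sum, so it says little of the other 27 genes. For the 29 other endothelial genes the sums were 16.7 to 23.9 and 11.0 to 15.8. Erythroid genes moved the other way, with sums of 0.63 to 2.09 in macrophages and 12.4 to 53.8 in monocytes. The part of cardiomyocyte, erythroid or other cells in the differences of the 9 genes was not tested.

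**Figure D5:**
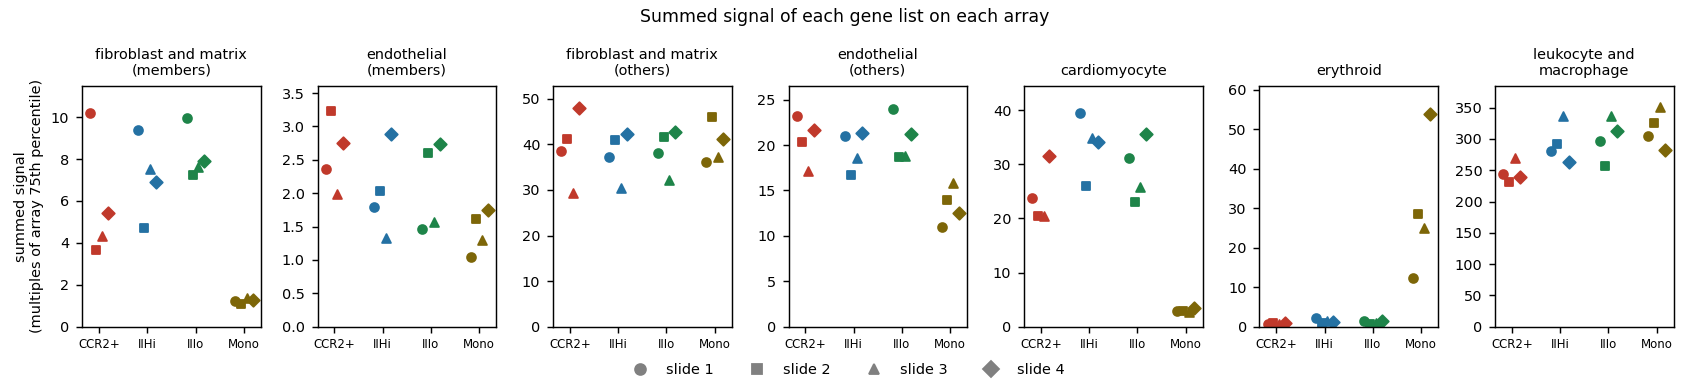
Summed signal of each list on each array, in multiples of the 75th percentile of the array, by population, with 1 marker shape per slide and a separate scale per list. The fibroblast members lie between 3.65 and 10.2 in macrophages and between 1.10 and 1.35 in monocytes, and the cardiomyocyte list lies between 20.4 and 39.4 in macrophages and between 2.71 and 3.39 in monocytes.

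The genes whose levels ran most like those of each tested member were found by the root mean square difference over the 16 arrays after centring each gene on its own mean, as a description over arrays that share slides and populations. For Dcn, whose SD over the arrays was 3.07, they were Igf1 (0.351), Mrc1 (0.425) and Cd63 (0.435), that is, a growth factor, a macrophage mannose receptor and a lysosomal tetraspanin. Col1a1 (SD 1.24) was nearest to Fmnl3 (0.428), Thop1 (0.481) and Nek6 (0.538), and Col1a2 (SD 1.01) to Rnase12 (0.442), 1700010I14Rik (0.461) and Mast2 (0.461). Col3a1 (SD 0.558) was nearest to Gpr155 (0.243), Lair1 (0.300) and Pusl1 (0.320). No member of either group was among the 3 nearest to another member. Levels were centred but not scaled, so genes of unlike SD lie far apart by this measure whatever their pattern. The result therefore does not show whether members vary together.

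For the endothelial genes, Pecam1 (SD 0.736) was nearest to Trip4 (0.465), Traf1 (0.469) and Gemin5 (0.473), and the single-spot Kdr probe (SD 0.542) to Fbxw10 (0.164), Map4k3 (0.168) and Cldn9 (0.191). Tie1 (SD 1.51) was nearest to Nedd4 (0.583), Troap (0.643) and Sparcl1 (0.650), a matricellular gene related to Sparc.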

How the data were processed

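The deposited scanner files give the processed signal as an intensity in arbitrary units. Per the submitters' processing notes, the authors used Agilent Feature Extraction (version 11.5.1.1) and Partek. Per the file headers it was background-subtracted within each array, and no scaling between arrays is recorded. Text columns were identified by content, because their headings are shifted. The deposited value table holds log2 values and served only for the check of its labels. Probes were named through RefSeq accessions (27508), else by the file's own symbol (9082), and 2839 stayed unnamed.

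Spots marked as outliers were left out (110 probes were dropped), spots of a probe were averaged, and the log2 of the 75th percentile was subtracted. The brightest of a gene's kept probes was tested, by limma 3.58.1 in R 4.3.3 (lmFit and eBayes, 1 mean per group, all 16 arrays, 12 residual degrees of freedom, 7 comparisons), two-sided, with Benjamini-Hochberg adjustment over all features and a threshold of 0.05. The script was tested on simulated data. The number of arrays limits the precision. Some genes of the other lists, such as Mb, Aqp1 and Col4a1, also passed the filter through macrophage arrays alone. These could hardly be called lower than in monocytes.

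Replicate numbers coincided with slides. All 24 same-numbered pairs of arrays from different groups deviated together from their group means (correlations 0.138 to 0.638, against -0.535 to 0.492 for other pairs). The number was therefore used as a block, and blocked values are given where they change a call. Some differently numbered pairs correlated more than same-numbered ones, so these values do not show that samples of 1 number came from the same mice. Alternatives covered background correction (normexp, offset 50), quantile and median scaling, filters, probe choice, outlier spots, the replicate block, array weights, the groups fitted and each array left out. Fits of every probe on its own, of slides in pairs and of the second Kdr probe were chosen after seeing the data. The 9 genes and the lists were chosen with earlier results of these data known. All 9 genes are named, with up to 4 of the genes with the largest called differences in each list and comparison, the sort markers, and the 3 genes nearest to each member. Other list genes named were chosen after their values were seen.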

Additional observations from a re-analysis of the deposited data

Results flagged for a closer look

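In 1 of the 40 sets of 4 arrays checked (10 probes in 4 populations), a single array stood apart from the other 3. Tie1 in CCR2+ Mac read -2.05 on the third array, and the nearest of the others read -1.12. The gap took 0.899 of the whole range, above Dixon's critical value for 4 samples. Chance alone marks about 1 in 20 such sets.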

How the results depend on the processing

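Of 1155 refits of a single member's difference, 1078 kept direction and side of the threshold, 52 lost a call, 17 gained one and 8 reversed. This tally leaves out the 336 refits of the 12 small differences between macrophage populations. In those the sign changed 31 times and 0 were called. With normexp, the members called against monocytes were 3 (CCR2+ Mac), 2 (MHC-IIHi), 2 (MHC-IIlo) and 3 (mean of the 3) of 7. Of 21980 features 5191, 4335, 4820 and 6829 were called. With slides 1 and 3 alone 1, 1, 1 and 2 members were called, and of all features 1467, 1792, 1865 and 2933. Between CCR2+ and MHC-IIlo Mac, 1 member was called with the replicate block, with array weights and with every probe on its own, and 0 to 1 without 1 array. The block called 5.71% of all features there, array weights 1209 of 21980, and the fit of every probe 2.84% of probes. Pecam1 reversed in MHC-IIHi minus Ly6cHi Mono with normexp (-0.049) and on slides 1 and 3 (-0.18). In MHC-IIlo minus Ly6cHi Mono it reversed with normexp (-0.21), on slides 1 and 3 (-0.33), and without Ly6cHi Mono replicate 1 or 4 or MHC-IIlo Mac replicate 4 (-0.13 to -0.02, in a range of -0.13 to 0.51 over all 16 fits without 1 array). Tie1 in CCR2+ minus MHC-IIlo Mac reversed on slides 1 and 3 (-0.10). The cause was not tested.

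Over all features, normexp shifted the median difference of CCR2+ Mac from monocytes from -0.09 to -0.25 and the split of calls from 2192 higher and 2570 lower to 1551 and 3640; without a filter on dim probes it was 2377 and 6167. Counts of called features ranged from 1467 to 8544 in that comparison and from 67 to 1256 for CCR2+ minus MHC-IIlo Mac. Without the filter Pdgfra was called lower in CCR2+ Mac than in monocytes, with both sides at background. The replicate block changed no other call of a member than those given.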

Other observations

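Platelet and megakaryocyte genes, whose cells also carry Pecam1, were tested for the mean of the 3 macrophage populations against monocytes: of 10, 1 was higher and 2 were lower, beside 27.4% of all features called and 12.5% called higher. With the replicate block 1 was higher and 3 were lower, against 38.3% of all features. Pf4, platelet factor 4, was higher by 5.29 ± 0.27, while Ppbp and Gp9 were lower by -2.07 ± 0.46 and -2.21 ± 0.52 (limma adjusted p = 9.85e-10, 0.00294 and 0.00437). Among T, B and NK cell genes limma called 0 of 5 tested for the mean of the 3. At an unadjusted p under 0.05 there was 1, against 7997 of 21980 features. With the replicate block 3 of the 5 were lower. The erythroid gene Hba-a1 was lower by -5.56 ± 0.49 (adjusted p = 4.49e-07). Of 8 leukocyte and macrophage genes, 2 were higher and 2 lower (2 and 3 with the replicate block), with Ptprc lower by -1.15 ± 0.15 (adjusted p = 3.25e-05).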
